A study of Mus musculus with 3 samples.

Results

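Laryngeal fibroblasts that held no counted transcript of *Hhip*, *Wnt16* or *Col23a1* numbered 946 among 41033 cell barcodes kept from 3 single-cell RNA sequencing libraries of mouse larynx. A kept barcode held 500 to 8000 genes, 1000 to 40000 unique molecular identifiers (UMIs, each a counted transcript) and at most 8% of its UMIs from mitochondrial genes, and did not hold UMIs of all of *Krt5*, *Ltf*, *Scgb3a1* and *Dcn*, genes of different cell types. A cell was taken as a fibroblast when at least 4 of the 7 genes *Col1a1*, *Col1a2*, *Col3a1*, *Dcn*, *Lum*, *Pdgfra* and *Dpt* had a UMI and *Epcam*, an epithelial adhesion gene, had none. The 946 cells then had 0 UMIs of *Hhip*, an inhibitor of Hedgehog signalling, of *Wnt16*, a Wnt ligand, and of *Col23a1*, a transmembrane collagen. They are called negative fibroblasts here, and the 3171 fibroblasts with a UMI of at least 1 of these 3 genes are called positive fibroblasts. The remaining comparison group held 35912 non-fibroblasts, and 1004 barcodes with at least 4 of the 7 genes and an *Epcam* UMI entered no group.

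All 3 libraries came from Lrig1CreERT2/+; ROSA26 LSL-tdTomato/+ mice, in which tamoxifen injected on 2 consecutive days lets the *Lrig1* locus switch on a red fluorescent protein. Each library held tdTomato-positive cells sorted from 10 pooled larynges, 5 of males and 5 of females, collected 24 hours after recombination. The study had 1 condition, so the comparisons set groups of cells of the same library side by side, and the library is the replicate. Because CreERT2 sits at the *Lrig1* locus, the sort reads past activity of that locus, and the fluorescent reporter itself was not among the measured genes.

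Fibroblasts build the connective tissue under an epithelium. They secrete fibrillar collagens, the small proteoglycans that space collagen fibrils, and elastic fibres, and they signal to the epithelium above them through secreted growth factors and their antagonists. In the larynx they form the lamina propria that vibrates in the vocal fold, wrap vessels, nerves, muscle and glands, and border on tendon, ligament and the cartilages of the laryngeal skeleton.

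The negative fibroblasts numbered 506, 68 and 372 in libraries 1, 2 and 3, and values below follow that order of libraries. They made up 4.03%, 0.952% and 1.74% of the kept barcodes, a mean of 2.24% ± 1.60 (SD, n = 3), whereas positive fibroblasts made up 11.8%, 4.82% and 6.30%. Library 1 thus held the most negative fibroblasts and library 2 the fewest. Their median depth was 9655, 10710.5 and 7390 UMIs per cell, their median number of detected genes 3619, 3778 and 3212, and their mitochondrial share 1.94%, 1.83% and 1.85% of UMIs. Positive fibroblasts had median depths of 10948, 11098 and 9203 UMIs. Summed over cells, the negative fibroblasts gave 5072217, 740466 and 3043631 UMIs, and library 2 rests on the least material. Libraries shared 17, 84 and 52 kept barcode sequences in pairs, and none of them was a negative fibroblast in both libraries of a pair.

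**Figure D1:**
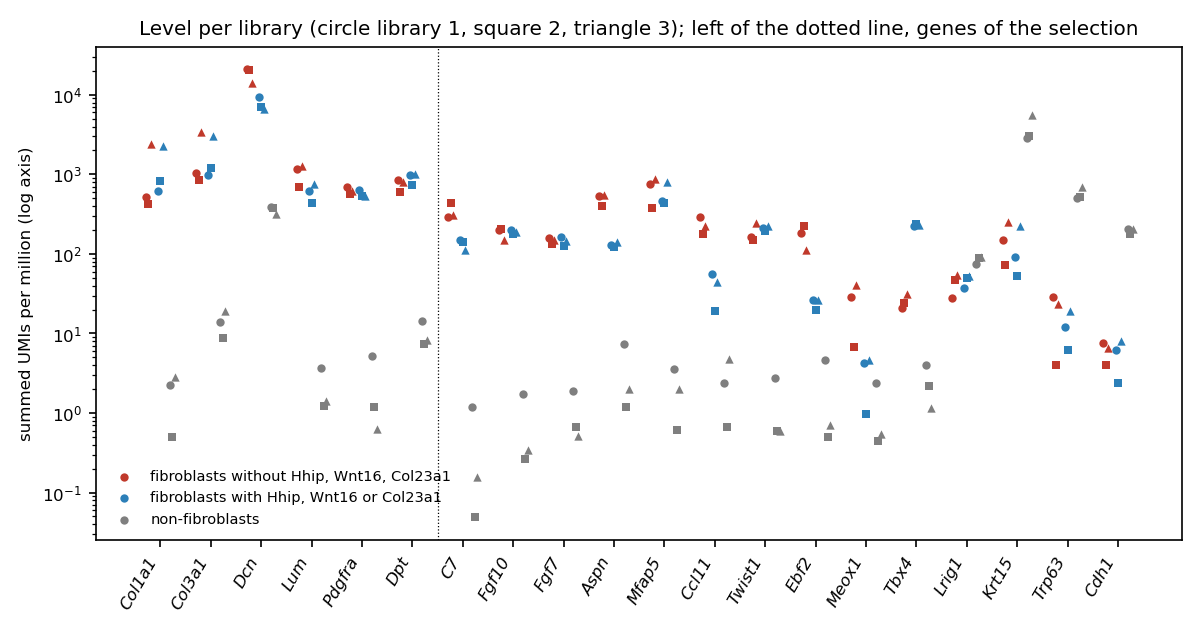
Level (counts scaled to a common total, CPM, log axis) of 20 genes in each library (circle, square and triangle for libraries 1, 2 and 3) in negative fibroblasts (red), positive fibroblasts (blue) and non-fibroblasts (grey). Genes left of the dotted line took part in the selection; on the right, *C7*, *Fgf10* and *Fgf7* lay far above the non-fibroblasts, while *Krt15*, *Trp63* and *Cdh1* lay below them.

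The cells were chosen by the measured UMIs of *Epcam*, of the 7 fibroblast genes and of *Hhip*, *Wnt16* and *Col23a1*, so these genes are given as a description. Levels are CPM, counts scaled to a common total, of the summed UMIs of a group in a library, and one UMI tags one transcript end, so they do not scale with gene length. *Dcn*, which codes for decorin, a small proteoglycan on collagen fibrils, stood at 20897, 20553 and 14166 CPM and was seen in 98.2%, 100% and 94.6% of the negative fibroblasts. The non-fibroblasts held *Dcn* at 385, 373 and 319 CPM with a UMI in 44.0%, 44.0% and 50.3% of cells, which is the level that cells outside the type carried. *Lum* (lumican) stood at 1176, 687 and 1271 CPM, *Pdgfra* (a receptor for platelet-derived growth factor) at 696, 571 and 611 CPM, and *Dpt* (dermatopontin) at 838, 605 and 804 CPM. *Col1a1* and *Col3a1*, the main fibrillar collagen chains, reached 2405 and 3365 CPM in library 3 against 520 and 1027 CPM in library 1 and 424 and 854 CPM in library 2. The 6 fibroblast markers summed to between 22623 and 25155 CPM per library, against 10811 to 14233 CPM in positive fibroblasts and 351 to 425 CPM in non-fibroblasts.

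Some cells went against the label. By the rule every cell held at least 4 of the 7 selection genes, with all 7 in 494 cells, 6 in 167, 5 in 134 and 4 in 151, and the median depth was 10800 UMIs in the cells with 7 and 5104 in those with 4. The 151 cells at the limit of 4 genes held *Dcn* at 5990 CPM and *Col1a1* at 328 CPM but also *Pax7*, the defining transcription factor of muscle satellite cells, at 319 CPM. Just outside the limit, 526 cells with 3 of the 7 genes held *Dcn* at 2143 CPM, *Col1a1* at 14.6 CPM and *Pax7* at 573 CPM, whereas *Pax7* stood at 7.39 CPM in the cells with all 7 genes. On the other edge of the rule, 375 fibroblasts had exactly 1 UMI of *Hhip*, *Wnt16* or *Col23a1*. At least 2 markers of another cell class were seen in 280 of the 946 cells (29.6%), in 193 of them epithelial, in 65 satellite cell, in 34 Schwann cell, in 15 macrophage and in 6 endothelial markers. The same rule flagged 854 of the 3171 positive fibroblasts, so such cells were not particular to the negative ones. The satellite cell markers summed to 179 to 592 CPM against 146 to 246 CPM in positive fibroblasts, higher within each library though the ranges overlap. The 8 epithelial markers summed to 54.0 to 173 CPM with *Epcam* at 0, against 3276 to 4613 CPM in non-fibroblasts. Macrophage markers summed to 36.1 to 68.6 CPM with 1 marker at 0, endothelial markers to 17.6 to 28.4 CPM with none at 0, and lymphocyte markers to 0.329 to 7.49 CPM with 3 of 6 at 0.

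The absence of 3 transcripts depends on how many were counted. Negative cells were 32.5% of the 759 fibroblasts with 1000 to 5000 UMIs (247 cells), 22.9% of the 1345 with 5000 to 10000 (308 cells), 19.2% of the 1814 with 10000 to 20000 (348 cells) and 21.6% of the 199 with 20000 to 40000 (43 cells). Over these 4 ranges the share fell throughout in library 3 (29.1%, 23.8%, 16.2% and 12.5%) and in library 2 (20.7%, 18.5%, 15.5% and 10.7%, the last 3 of 28 cells), whereas in library 1 it went from 36.2% to 22.8% and 22.1% and stood at 27.6% in the deepest 123 cells.

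Against the non-fibroblasts of the same libraries, the negative fibroblasts were higher in most matrix, growth factor and antagonist genes tested and lower in every epithelial gene tested. Of 18558 genes tested, 3423 were higher (18.4%) and 4043 lower (21.8%) in negative fibroblasts (edgeR quasi-likelihood test on summed counts, 3 libraries against 3, adjusted p under 0.05), and 4557 genes in all were called without library 1. Both groups were cut on genes of the same cells, so the genes of the rule have no test, and the p-values measure the spread between libraries of pooled animals. Genes expressed along with those of the rule, among them matrix and epithelial genes, were tested. Their direction follows in part from the selection. In lists of genes chosen with earlier results known, 18 of 20 collagens of fibrils and microfibrils were higher and 0 lower, as were 12 of 12 tested proteoglycans, 19 of 20 genes of elastic fibres and 27 of 28 matrix proteases, inhibitors and collagen-processing enzymes. The median log2 fold was 4.35, 6.43, 4.45 and 3.23 in these lists against -0.13 over all genes tested. *Col6a3*, a chain of the microfibrils around cells, stood at 127, 64.8 and 154 CPM against 1.43, 0.292 and 0.515 in non-fibroblasts (log2 fold 7.32 ± 0.68 SE, edgeR adjusted p = 0.000189). *Col14a1*, which sits on fibril surfaces, stood at 319.8, 205 and 365 CPM against 3.79, 1.55 and 1.30 (log2 fold 7.08 ± 0.53 SE, edgeR adjusted p = 9.11e-05). *Eln*, the elastin precursor, stood at 346, 269 and 448 CPM against 11.7, 5.20 and 2.85 (log2 fold 5.75 ± 0.57 SE, edgeR adjusted p = 0.000256). The groups overlapped in none of the 3 genes. Such statements on overlap, here and below, describe genes already called, and no share over all genes tested is given beside them.

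Secreted signals were mostly higher as well. Of 36 growth factors tested, 26 were higher and 4 lower (median log2 fold 2.84), of 22 antagonists and binding proteins 20 were higher and 1 lower (5.01), and of 23 chemokines, cytokines and complement genes 14 were higher and 2 lower (4.59). *Fgf10*, the mesenchymal ligand that drives budding of airway epithelium, stood at 201, 204 and 148 CPM against 1.74, 0.263 and 0.342 (log2 fold 7.90 ± 0.81 SE, edgeR adjusted p = 0.000289). *Fgf7*, a ligand for the same epithelial receptor, stood at 156, 132 and 148 CPM against 1.89, 0.672 and 0.515 (log2 fold 7.17 ± 0.55 SE, edgeR adjusted p = 9.75e-05). Both ligands stood under 2 CPM in every non-fibroblast library. *Igf1*, insulin-like growth factor 1, stood at 642, 324 and 1519 CPM against 12.9, 6.60 and 7.71 (log2 fold 6.50 ± 0.67 SE, edgeR adjusted p = 0.000287), and *Wnt5a*, a ligand of the non-canonical Wnt route, at 130.1, 64.8 and 242 CPM against 4.65, 2.30 and 2.39 (log2 fold 5.58 ± 0.55 SE, edgeR adjusted p = 0.000238). *Wnt4* went the other way, with 25.2, 23.0 and 39.4 CPM against 406, 446 and 536 (log2 fold -3.96 ± 0.24 SE, edgeR adjusted p = 5.01e-05). Among the receptors, 21 of 30 were higher and 3 lower (median log2 fold 2.71), and *Fgfr2*, whose epithelial form binds *Fgf7* and *Fgf10*, and the related *Fgfr3* were both lower (log2 folds -1.61 ± 0.17 and -3.97 ± 0.34). *Cxcl12*, a chemokine of stromal cells, stood at 558, 641 and 741 CPM against 44.2, 5.17 and 5.22 (log2 fold 5.14 ± 0.94 SE, edgeR adjusted p = 0.00403).

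Of 45 transcription factors of mesenchyme, 33 were higher and 7 lower than in non-fibroblasts (median log2 fold 3.31). *Twist1*, a mesenchymal helix-loop-helix factor, stood at 161, 149 and 245 CPM against 2.78, 0.595 and 0.596 (log2 fold 7.14 ± 0.74 SE, edgeR adjusted p = 0.0003). *Foxf1*, a Hedgehog-responsive forkhead factor of foregut mesenchyme, stood at 92.1, 89.1 and 141 CPM against 1.79, 0.575 and 0.381 (log2 fold 6.90 ± 0.65 SE, edgeR adjusted p = 0.0002). *Gsc*, the goosecoid homeobox factor (chr12:104437468-104439632, GRCm39), stood at 19.7, 27.0 and 41.1 CPM against 0.0435, 0.0487 and 0.115 (log2 fold 8.54 ± 0.51 SE, edgeR adjusted p = 5.01e-05). All 14 epithelial genes tested were lower, with a median log2 fold of -4.59. The rule barred *Epcam*, and the non-fibroblasts held the epithelial markers at 3276 to 4613 CPM, so this fall was in part built in. *Cdh1*, which codes for E-cadherin, stood at 7.69, 4.05 and 6.57 CPM against 203, 179 and 206 (log2 fold -4.85 ± 0.20 SE, edgeR adjusted p = 2.85e-05), and *Trp63*, the factor of basal epithelial cells, gave a log2 fold of -4.74 ± 0.47. Of the 10 macrophage genes 5 were lower and 0 higher, of the 8 endothelial genes 0 passed in either direction, and of the 8 satellite cell genes 3 were higher and 0 lower. With the library as a replicate block, which compares the groups within each library, 10 macrophage and 4 endothelial genes were lower, the latter *Egfl7*, *Emcn*, *Tie1* and *Vwf*, while without library 1 or without library 2 the macrophage calls went from 5 to 1. Without the 280 cells that held at least 2 markers of another class, 1 satellite cell gene was higher and 6 were lower. Those cells were left out of the negative fibroblasts only. *Pax7*, *Myf5*, *Cdh15*, *Myod1* and *Calcr*, which are among the 6, served to flag them, so this change was built in.

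The genes with the largest folds among those called, named by a fixed rule on level and rank, included secreted and surface proteins of connective tissue. *C7*, a terminal complement component (chr15:5017233-5093252), stood at 295, 431 and 310.5 CPM against 1.18, 0.0487 and 0.158 (log2 fold 9.56 ± 1.10 SE, edgeR adjusted p = 0.000479). *Cilp*, a matrix protein of cartilage and fibrous tissue, stood at 162, 176 and 118 CPM against 0.331, 0.497 and 0.104 (log2 fold 9.01 ± 0.59 SE, edgeR adjusted p = 6.22e-05). *Pi16*, a surface peptidase inhibitor that marks fibroblasts around vessels, stood at 651, 397 and 256 CPM against 1.96, 0.536 and 0.507 (log2 fold 8.79 ± 0.79 SE, edgeR adjusted p = 0.000165). In each of these 3 genes every negative library lay above every non-fibroblast library. Picking called genes by their fold favours this. *Prg4*, which codes for the lubricant of joints, ranged widely, at 1231, 3163 and 310.2 CPM against 8.51, 2.58 and 0.653 (log2 fold 8.62 ± 1.36 SE, edgeR adjusted p = 0.00209). *Thbs4*, *Epyc*, *Clec3b*, *Dio3*, *Adgrd1*, *Mfap5*, *Myoc*, *Inmt*, *Lvrn* and *Fgf10*, together with *Gsc*, completed the 15, with log2 folds between 7.90 and 8.91. At the other end, *Rsph4a*, a gene of motile cilia, *Usp43* and *Slc5a8* had 0 UMIs in all negative fibroblasts. Against a floor of 3 counts over the group they were at least 42.8-fold, 44.4-fold and 39.5-fold lower. *Sult1b1* had 1 UMI. DESeq2 gave no adjusted p for *Myoc*.

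A second comparison asked what sets these cells apart from the fibroblasts that did hold *Hhip*, *Wnt16* or *Col23a1*. Of 13126 genes tested, 202 were higher (1.54%) and 287 lower (2.19%) in negative fibroblasts. Leaving out a library, in fits without the block, changed this count strongly. There were 20 genes called without library 1, 82 without library 2 and 558 without library 3. Of the 60 called genes of the lists below, 5, 15 and 50 were called without library 1, 2 and 3, with no change of sign. The blocked fit was not run with a library left out. With the library as a replicate block, 630 were higher (4.8%) and 707 lower (5.39%), all 489 of the first calls among them. Among cells of at least 10000 UMIs, 358 genes were called, of which 321 were among the 489.

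**Figure D2:**
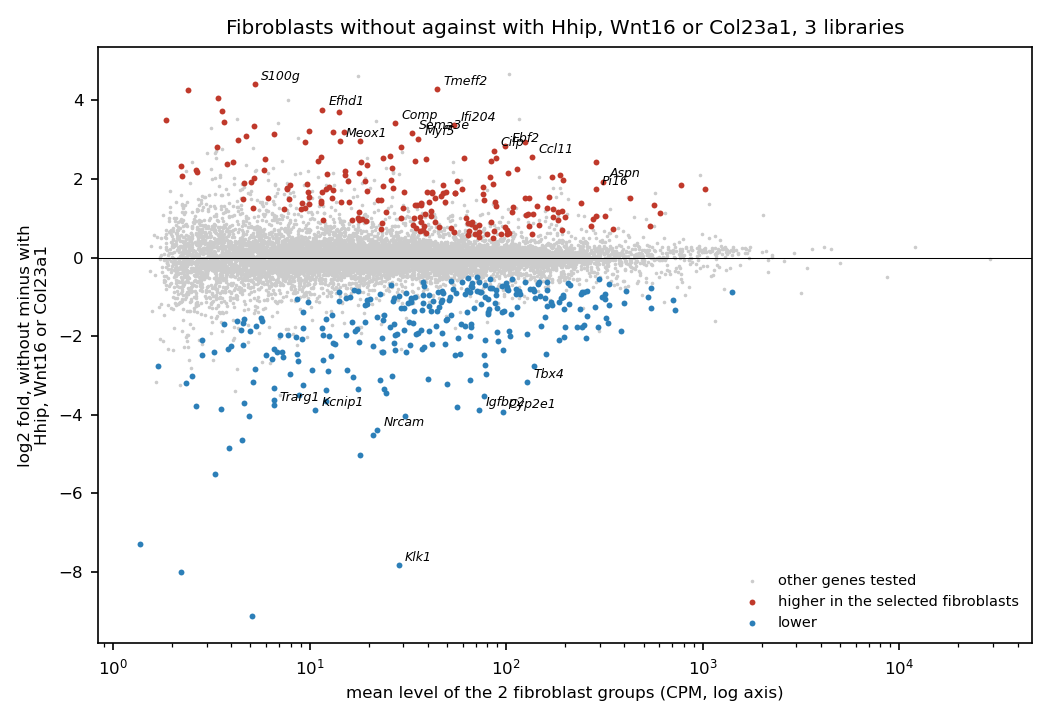
Mean level (CPM, log axis) against log2 fold of negative over positive fibroblasts for 13126 tested genes, each point a gene, with the 202 higher genes in red and the 287 lower ones in blue. *Tmeff2*, *Comp* and *Ebf2* lie among the higher genes, and *Nrcam*, *Cyp2e1* and *Tbx4* among the lower ones.

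Several transcription factors differed between negative and positive fibroblasts. Of 45 factors, 7 were higher and 6 lower (median log2 fold -0.12 against 0.01 over all genes tested), and with the block 10 were higher and 10 lower. *Tbx4*, a T-box factor of airway mesenchyme, stood at 20.9, 24.3 and 31.2 CPM in negative and 226, 237 and 228 CPM in positive fibroblasts (log2 fold -3.16 ± 0.15 SE, edgeR adjusted p = 0.000265). *Tbx3*, another T-box factor, stood at 35.7, 39.2 and 44.4 against 105, 91.4 and 96.6 CPM (log2 fold -1.28 ± 0.12 SE, edgeR adjusted p = 0.00199), and *Gata6*, a zinc-finger factor of foregut tissues, at 23.3, 32.4 and 21.0 against 78.8, 63.4 and 77.3 CPM (log2 fold -1.58 ± 0.18 SE, edgeR adjusted p = 0.00467). *Tbx5*, *Osr2* and *Twist2* were lower as well (log2 folds -1.08 ± 0.21, -1.30 ± 0.28 and -0.82 ± 0.16), and without cells that held markers of another class the calls for *Osr2* and *Twist2* were kept only with the block. The highest negative library lay below the lowest positive library for *Tbx4*, *Tbx3* and *Gata6*.

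The early B-cell factors, helix-loop-helix regulators of adipocyte and stromal lineages, went the other way. *Ebf2* stood at 182, 226 and 113 against 26.4, 19.8 and 26.6 CPM (log2 fold 2.83 ± 0.28 SE, edgeR adjusted p = 0.00248), *Ebf3* at 64.1, 59.4 and 49.9 against 12.1, 9.65 and 10.1 CPM (log2 fold 2.45 ± 0.18 SE, edgeR adjusted p = 0.000998) and *Ebf1* at 1712, 1128 and 765 against 413, 313 and 309 CPM (log2 fold 1.84 ± 0.32 SE, edgeR adjusted p = 0.0221). All 3 were thus higher, with no overlap between the groups. *Foxp2*, a forkhead factor, stood at 272, 248 and 281 against 139, 101 and 116 CPM (log2 fold 1.20 ± 0.15 SE, edgeR adjusted p = 0.00606). *Meox1*, a homeobox factor of somites, varied more between libraries, at 29.0, 6.75 and 40.1 against 4.22, 0.965 and 4.59 CPM (log2 fold 2.96 ± 0.53 SE, edgeR adjusted p = 0.025), and its negative and positive libraries did not overlap. *Tbx15*, a T-box factor, was higher too (log2 fold 1.50 ± 0.29), but lost its call without any 1 of the 3 libraries, and without cells that held markers of another class it was not called with or without the block. Of the 13 factors called, 2 were still called without library 1, *Tbx4* and *Ebf3*, 6 without library 2 and 10 without library 3, and each kept its sign.

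**Figure D3:**
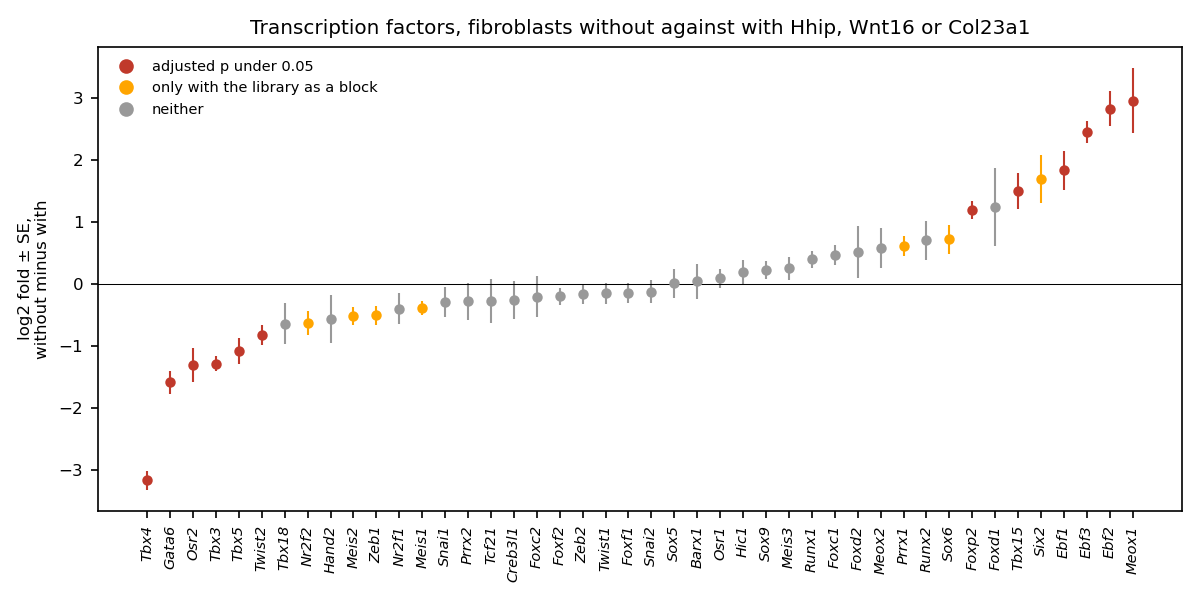
Log2 fold of negative over positive fibroblasts, with its SE as bars, for mesenchymal transcription factors, red where called (adjusted p under 0.05), orange where called only with the library as a block and grey otherwise. *Meox1*, *Ebf2* and *Ebf3* stand at the higher end and *Tbx4* and *Gata6* at the lower end.

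Few matrix genes passed the test without the block. Of 18 collagens tested 0 were higher and 1 lower, of 13 proteoglycans 2 were higher, of 20 elastic fibre genes 1 was higher and of 27 proteases and inhibitors 2 were higher, with medians between -0.11 and 0.21 on the log2 scale against 0.01 over all genes. With the block, where 4.8% of all genes were higher and 5.39% lower, 4 collagens were higher and 5 lower, 5 proteoglycans higher and 4 lower, 2 elastic fibre genes higher and 4 lower, and 4 proteases and inhibitors higher and 6 lower. The lower collagen without the block was *Col13a1*, a transmembrane chain, at 7.69, 5.40 and 14.1 against 47.2, 38.6 and 48.8 CPM (log2 fold -2.18 ± 0.25 SE, edgeR adjusted p = 0.00428). *Aspn* (asporin), a small proteoglycan that binds transforming growth factor beta, was higher, at 529.6, 398 and 548 against 131, 123 and 139.5 CPM (log2 fold 1.94 ± 0.15 SE, edgeR adjusted p = 0.0011). *Chad* (chondroadherin), a proteoglycan-family protein of cartilage and tendon, was higher with a wider spread, at 129, 145 and 286 against 18.8, 32.6 and 69.1 CPM (log2 fold 2.24 ± 0.48 SE, edgeR adjusted p = 0.0455). *Col13a1* and *Chad* lost their calls without library 1 or library 2, and *Aspn* without library 1 (edgeR adjusted p = 0.0629).

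Secreted signals changed in both directions. Of 34 growth factors 2 were higher and 4 lower, and of 22 antagonists and binding proteins 4 were higher and 4 lower. With the block the growth factors gave 4 higher and 7 lower and the antagonists 6 higher and 8 lower. *Bmp5*, a bone morphogenetic protein, stood at 122, 99.9 and 121 against 35.1, 37.4 and 43.5 CPM (log2 fold 1.61 ± 0.12 SE, edgeR adjusted p = 0.00113), whereas *Bmp2*, of the same family, stood at 78.5, 44.6 and 69.3 against 169.9, 177 and 142 CPM (log2 fold -1.26 ± 0.20 SE, edgeR adjusted p = 0.0148). One ligand of the family was thus higher and another lower in the summed counts. *Wif1*, a secreted Wnt inhibitor, stood at 99.6, 64.8 and 100.2 against 246, 284 and 406 CPM (log2 fold -1.76 ± 0.22 SE, edgeR adjusted p = 0.00664), and *Igfbp3*, a carrier of insulin-like growth factors, at 302, 424 and 497 against 972, 856 and 1281 CPM (log2 fold -1.32 ± 0.22 SE, edgeR adjusted p = 0.0179). Both were lower, and *Igfbp5* and *Igfbp6*, other carriers of the family, were higher (log2 folds 1.74 ± 0.27 and 1.13 ± 0.20). *Fst* (follistatin), an activin antagonist, stood at 243, 211 and 268 against 119.6, 115 and 80.0 CPM (log2 fold 1.23 ± 0.18 SE, edgeR adjusted p = 0.0125). *Fgf10* and *Fgf7*, so much above the non-fibroblasts, gave log2 folds of 0.00 ± 0.17 and 0.05 ± 0.14 here (edgeR adjusted p = 1.0 and 0.991). Without library 1 none of the 14 calls among growth factors and antagonists was kept, without library 2 3 were and without library 3 12 were, all with the same sign.

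Of 18 chemokines, cytokines and complement genes 2 were higher and 0 lower, and with the block 5 were higher and 1 lower. *Ccl11* (eotaxin), which attracts eosinophils (chr11:81948618-81953781), stood at 291, 176 and 227 against 55.2, 19.3 and 44.3 CPM (log2 fold 2.56 ± 0.36 SE, edgeR adjusted p = 0.0102), and *C7* at 295, 431 and 310.5 against 149, 139.6 and 111 CPM (log2 fold 1.39 ± 0.20 SE, edgeR adjusted p = 0.0114). *Cxcl13*, a B-cell chemokine, stood at 230.3, 355 and 17.4 against 13.8, 1.21 and 5.67 CPM and did not pass (log2 fold 4.67 ± 1.06 SE, edgeR adjusted p = 0.059) but did with the block (edgeR adjusted p = 0.00775). Few cells carried it. Of its UMIs in negative fibroblasts, 46.8% lay in cluster 2, where 24.2% of cells held it. A further 24.2% lay in cluster 9, where 5.06% of cells did. Among 30 receptors, 3 were higher and 3 lower, and with the block 8 were higher and 6 lower. *Egfr*, the epidermal growth factor receptor, stood at 383, 404 and 316 against 196, 183 and 186 CPM (log2 fold 0.99 ± 0.15 SE, edgeR adjusted p = 0.0132), and *Ednra*, an endothelin receptor, at 154, 176 and 271 against 437, 516 and 448 CPM (log2 fold -1.20 ± 0.20 SE, edgeR adjusted p = 0.0199). In both genes the libraries of the groups did not overlap. Without library 1, *Ccl11*, *C7*, *Egfr* and *Ednra* were not called (edgeR adjusted p between 0.0954 and 0.246), and without library 2 *Ccl11* was (0.0376) and the others were not.

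Some markers of adventitial and tendon fibroblasts were higher. Of 17 adventitial genes, those of fibroblasts around vessels, 5 were higher and 0 lower (median log2 fold 1.13), and with the block 12 were higher and 1 lower. *Pi16* stood at 651, 397 and 256 against 127, 143 and 136 CPM (log2 fold 1.74 ± 0.33 SE, edgeR adjusted p = 0.0314). *Ly6c1*, a surface antigen, *Anxa3*, an annexin, and *Ackr3*, a scavenging receptor for *Cxcl12*, gave log2 folds of 2.95 ± 0.51, 2.54 ± 0.41 and 2.46 ± 0.38. *Dpp4*, a surface peptidase of progenitor-like fibroblasts, stood at 64.5, 32.4 and 4.93 against 2.87, 0.482 and 0.306 CPM and missed the threshold (log2 fold 4.62 ± 1.01 SE, edgeR adjusted p = 0.0515) but passed with the block (edgeR adjusted p = 0.000101). Of 9 tendon and ligament genes 2 were higher and 0 lower (median 1.73), *Cilp* (log2 fold 2.72 ± 0.33) and *Thbs4* (2.04 ± 0.33), and with the block 6 were higher. Of 8 synovial genes 1 was higher and 1 lower, and with the block 3 were higher and 1 lower. *Prg4* stood at 1231, 3163 and 310.2 against 453, 521 and 152 CPM, above in 3 of 3 libraries. It did not pass (log2 fold 2.11 ± 0.80 SE, edgeR adjusted p = 0.282) but did with the block (edgeR adjusted p = 0.00638), and with the block but without cells that held markers of another class its edgeR adjusted p was 0.0598. Of 17 chondrocyte genes 3 were higher and 1 lower (median 0.17), the 3 being *Chad*, *Comp* and *Cytl1*. With the block 6 were higher and 1 lower, and without cells that held markers of another class 1 was higher, *Comp*, and 0 lower. Without library 1 the adventitial calls went from 5 to 0 and the tendon calls from 2 to 1, and without library 2 to 0 and 1.

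Satellite cell genes moved with this comparison. Of 7 tested, 4 were higher (median 1.95), with the block 6 were, and without library 1 none of the 4 was called. Cells with at least 2 markers of another class were then left out of both groups, 280 negative and 854 positive ones. These markers include *Pax7*, *Myf5*, *Cdh15*, *Myod1* and *Calcr*, so a fall of this list was built in. Of its genes 4 were then tested, the median was -0.15 and 1 was higher, *Musk*, a muscle receptor kinase. In all cells *Musk* stood at 65.3, 89.1 and 69.0 against 18.4, 18.8 and 24.3 CPM (log2 fold 1.85 ± 0.17 SE, edgeR adjusted p = 0.00196). It was seen in 44.1% of cluster 6, described further on, and 18.7% of the other negative fibroblasts. Cluster 6 had 0 of 7 satellite markers raised. With the flagged cells of both groups left out, 447 genes were called, of which 358 were among the 489. *Notch3*, a receptor also found in satellite cells and pericytes, went from a log2 fold of 2.45 to 0.82 (edgeR adjusted p = 0.0296 and 0.739). None of 14 epithelial genes tested was called in either direction (median 0.34).

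By the same rule on level and rank, 12 higher and 8 lower genes were picked. *Tmeff2*, a transmembrane protein with follistatin domains (chr1:50939803-51227332), stood at 104, 117 and 32.2 against 4.53, 8.20 and 1.84 CPM (log2 fold 4.30 ± 0.64 SE, edgeR adjusted p = 0.0121). *Comp*, a pentameric matrix protein of cartilage and tendon (chr8:70826192-70834716), stood at 41.4, 60.8 and 48.3 against 6.36, 3.62 and 3.14 CPM (log2 fold 3.43 ± 0.30 SE, edgeR adjusted p = 0.00164), and was called under every alternative run. *Sema3e*, a semaphorin, stood at 58.8, 104 and 17.1 against 4.89, 10.4 and 4.98 CPM (log2 fold 3.18 ± 0.63 SE, edgeR adjusted p = 0.0368). *Efhd1*, *Ifi204*, *Smpd3* and *Cadm3* were higher with log2 folds between 3.21 and 3.77. Cluster 2, described further on, held 51.5% to 59.7% of the UMIs of *Tmeff2*, *Sema3e*, *Efhd1*, *Smpd3* and *Cadm3* and 45.3% of those of *Ifi204*. Of its 66 cells 57 came from library 1. Cluster 4 held 69.2% of the *Comp* UMIs. *S100g*, *Erfe*, *Nppc* and *Myf5* also ranked among the 12, but 85% of the *Erfe* and 91.8% of the *Myf5* UMIs lay in the satellite-like cluster described further on, and none of these 4 was tested once cells with markers of another class were left out.

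Among the 8 with the largest falls, *Nrcam*, a neuronal cell adhesion molecule (chr12:44375287-44651976), stood at 2.56, 1.35 and 1.31 against 48.5, 37.4 and 41.8 CPM (log2 fold -4.38 ± 0.27 SE, edgeR adjusted p = 0.000612) and kept its call under every alternative. *Pla2g5*, a secreted phospholipase, stood at 1.38, 2.70 and 1.97 against 45.1, 22.9 and 51.4 CPM (log2 fold -4.52 ± 0.44 SE, edgeR adjusted p = 0.00243). *Igfbp2* stood at 9.07, 0 and 12.8 against 150.0, 153 and 114 CPM (log2 fold -3.88 ± 0.38 SE, edgeR adjusted p = 0.00243), and *Cyp2e1*, a cytochrome P450, at 13.2, 17.6 and 6.90 against 181, 251 and 106 CPM (log2 fold -3.94 ± 0.44 SE, edgeR adjusted p = 0.00405). Every negative library lay below every positive library in each of these 4 genes, which the choice of called genes by their fold favours. *Kcnip1*, *Ces1f* and *Trarg1* were lower with log2 folds of -3.88, -3.80 and -3.75. *Klk1*, a kallikrein protease, had 2 UMIs in negative fibroblasts and stood at 17.6, 37.9 and 114 CPM in positive ones. Without library 1, the calls for every gene picked by this rule on level and rank except *Comp*, *Nrcam* and *Erfe* were lost, with folds of the same sign.

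Within the 946 cells, Leiden clustering at a resolution of 1 gave 13 clusters, and at 0.5 and 2 it gave 9 and 20. The adjusted Rand index with the 13, which is 1 for equal groupings, was 0.64 and 0.651. Without the genes of the rule among the variable genes there were 12 clusters, with an index of 0.802. Which cells share a cluster thus depended on the setting. Clusters are described by their leading genes without tests, since these genes made them. Names were given only from marker lists. Cluster 1 held 58 cells (17, 5 and 36 by library) led by *Myf5*, *Fgfr4*, *Pax7* and *Calcr*, with all 7 satellite markers raised, 57 cells with at least 2 markers of another class and a median of 4 of the 7 selection genes. It is satellite-like and goes against the fibroblast label. *Myf5*, a muscle lineage factor, was seen in 96.6% of its cells and 1.01% of the others. Cluster 13 held 36 cells (22, 1 and 13) with *Trp63* in 61.1% of them, *Krt17* in 33.3% and 6 of 8 epithelial markers raised, and 26 of its cells held at least 2 markers of another class. It also goes against the label, and its median depth was 5908 UMIs.

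Cluster 2, adventitial-like, held 66 cells, 57 of them from library 1, 7 from library 2 and 2 from library 3. *Procr*, the protein C receptor, was seen in 75.8% of its cells, *Tmeff2* in 87.9%, *Dpp4* in 42.4% and *Pi16* in 75.8%, and its median depth was 13653 UMIs. *Tmeff2*, *Dpp4* and *Sema3e*, summed over all negative fibroblasts, were also lowest in library 3, and the part of these cells in that was not tested. Cluster 12 was the smallest, with 12 cells (6, 0 and 6), and is perineurial-like, after the sheath cells of nerves. *Cldn1*, a tight junction gene, was seen in 83.3% of its cells and 2.03% of the others, and 7 of 8 perineurial markers were raised.

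Cluster 4 held 81 cells (27, 3 and 51) led by genes of dense and cartilage-like matrix. *Fmod* (fibromodulin) was seen in 44.4% of its cells and 0.462% of the others, *Col11a1*, a minor fibril chain of cartilage, in 70.4% and 2.89%, *Chad* in 79.0% and 5.55%, and *Col8a1*, a network collagen, in 90.1% and 13.5%. With 7 of 8 tendon and 5 of 16 chondrocyte markers raised it was left unnamed. Cluster 6 held 111 cells (43, 7 and 61) led by *Tafa1*, *Tafa2*, *Parm1*, *Cpz* and *Cpm*. *Gsc* was seen in 45.9% of its cells, in 34.8% of cluster 5, in 26.6% of cluster 9 and in 22.2% of cluster 4, but in 12.1% or less of every other cluster. *Pi16*, by contrast, had a UMI in 0% of cluster 6.

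The other clusters lacked a name and differed in their signals. Cluster 3 held 108 cells (76, 4 and 28) with *Ccl11* in 57.4% and *Ramp1*, a subunit of peptide hormone receptors, in 48.1%. Cluster 5 held 66 (43, 9 and 14) with *Cxcl14*, a chemokine, in 42.4% and *Dio3*, which inactivates thyroid hormone, in 28.8%. Cluster 7, the largest, held 131 (47, 7 and 77) with *Ptn* (pleiotrophin) in 64.9% and *Tbx4* in 38.2%, and cluster 8 held 73 (42, 2 and 29) with *Faim2*, an inhibitor of *Fas*-driven cell death, in 41.1%. *Tbx4*, low in negative fibroblasts as a whole, had a UMI in 31.5% of cluster 10 and 30.3% of cluster 11 but in 0% of cluster 2, so that it too divided them. Cluster 9 held 79 (35, 1 and 43) with *Pgr*, the progesterone receptor, in 27.8% against 0.923% of other cells, and *Pgf*, placental growth factor, in 43.0%. Cluster 10 held 92 (69, 22 and 1) led by *Cdo1*, *Gpnmb* and *Serpina3n*. Its near absence from library 3 went along with a lower *Serpina3n* in all cells of that library, at 219, 704 and 48.3 CPM in negative fibroblasts and 15.1, 21.1 and 1.38 CPM in non-fibroblasts, and its part in the cluster was not tested. Cluster 11 held 33 (22, 0 and 11) with *Ppp1r1b*, a phosphatase inhibitor, in 57.6%, and *Wif1* in 42.4%. In it 5 of 16 chondrocyte markers were raised, as many as in cluster 4 (*Col9a2*, *Col9a3*, *Hapln1*, *Sox9* and *Chad*), with 0 of 8 tendon and 3 of 8 perineurial markers.

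**Figure D4:**
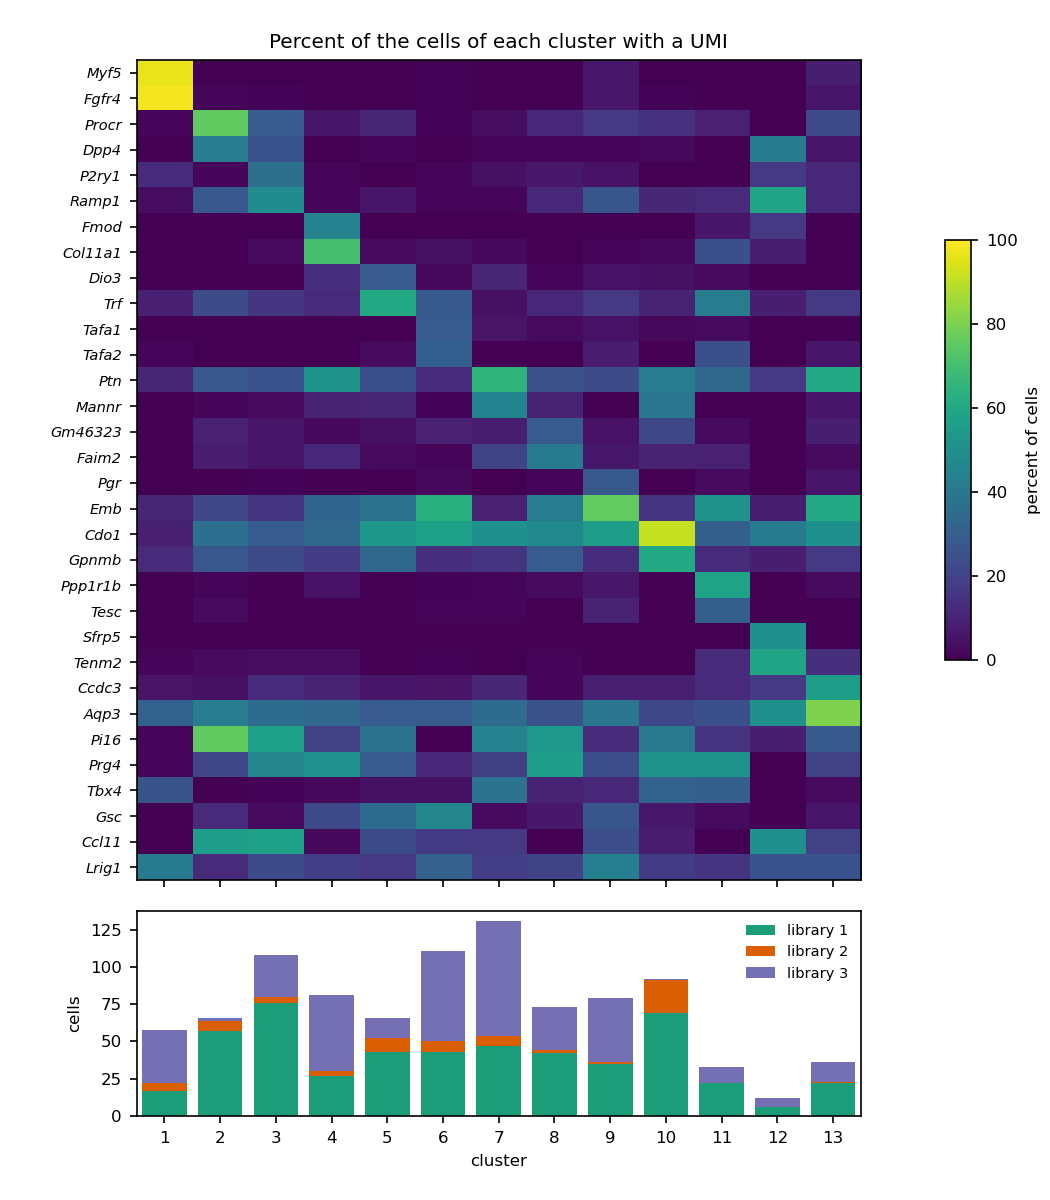
Share of cells with a UMI (percent, colour) of the 2 leading genes of each of 13 clusters and of *Pi16*, *Prg4*, *Tbx4*, *Gsc*, *Ccl11* and *Lrig1* across the clusters, over bars of the number of cells of each library in a cluster. Cluster 2 is mostly of library 1, cluster 10 has 1 cell of library 3, and *Prg4* is spread over clusters 4, 8, 10 and 11 at 50.6% to 56.2% of cells.

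*Acan* (aggrecan), *Col2a1* (the main cartilage collagen) and *Cnmd* (chondromodulin), 3 genes of cartilage, were seen in 16 negative fibroblasts, 7 in library 1 and 9 in library 3, or 1.38%, 0% and 2.42% of the cells of each library (mean 1.27% ± 1.21, SD, n = 3). The 0 of 68 cells in library 2 allows a share of up to 4.41%. The share exceeded that in positive fibroblasts by a mean of 0.747 percentage points ± 1.06 (SD of the difference, n = 3), above in 2 of 3 libraries. The exact two-sided sign-flip test gave p = 0.5, and over 3 libraries it cannot go below 0.25. Among cells thinned to 5000 UMIs, which leaves out 247 negative and 512 positive cells, 14 of 699 negative cells held one of the genes (2.00%, 95% Wilson interval 1.20% to 3.33%) and 9 of 2659 positive ones (0.338%, 0.178% to 0.642%, counting error only), with the share below in 0 of 3 libraries and at 0 in both groups of library 2. *Acan* was seen in 10 cells, *Col2a1* in 8 and *Cnmd* in 5. At least 2 of the 3 genes were seen in 4 cells, 3 of library 1 with all of them and 1 of library 3, against 0 of 3171 positive fibroblasts, which allows a share of up to 0.0946%, and 18 non-fibroblasts, 16 of library 1 and 2 of library 2. In positive fibroblasts 19 of 3171 cells (0.599%) and in non-fibroblasts 62 of 35912 (0.173%) held any of the 3. The signal was sparse, and 10 of the 16 cells rest on a single gene with 1 or 2 UMIs.

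Of the 16 cells, 13 lay in cluster 4 and 1 each in clusters 9, 11 and 12, and other cartilage genes that took no part in choosing the 16 were seen in them as well. Median depth was 10167.5 UMIs in the 16 and 7639 in the other 68 cells of cluster 4. It was 8626.5 in the 930 negative fibroblasts without the 3 genes and 10195 in positive ones. The shares below are not adjusted for depth. *Col11a1* was seen in 87.5% of the 16, in 66.2% of the other 68 cells of cluster 4, in 7.31% of all 930 negative fibroblasts without the 3 genes and in 2.46% of positive ones. *Cytl1*, a cytokine-like protein of chondrocytes, was seen in 43.8%, 11.8%, 3.33% and 1.32% of these groups, and *Ucma*, a protein of juvenile cartilage, in 31.2%, 1.47%, 0.108% and 0.536%. *Sox9*, the master factor of chondrocytes, was seen in 68.8%, 29.4%, 25.2% and 19.1%. *Dpt*, a selection gene, was seen in 31.2% of the 16 against 85.3% of the 930, and in 0 of the 4 cells with at least 2 of the 3 genes, which all held *Col11a1* and *Fmod*. *Matn1*, another cartilage matrix gene, had 0 UMIs in negative and positive fibroblasts.

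**Figure D5:**
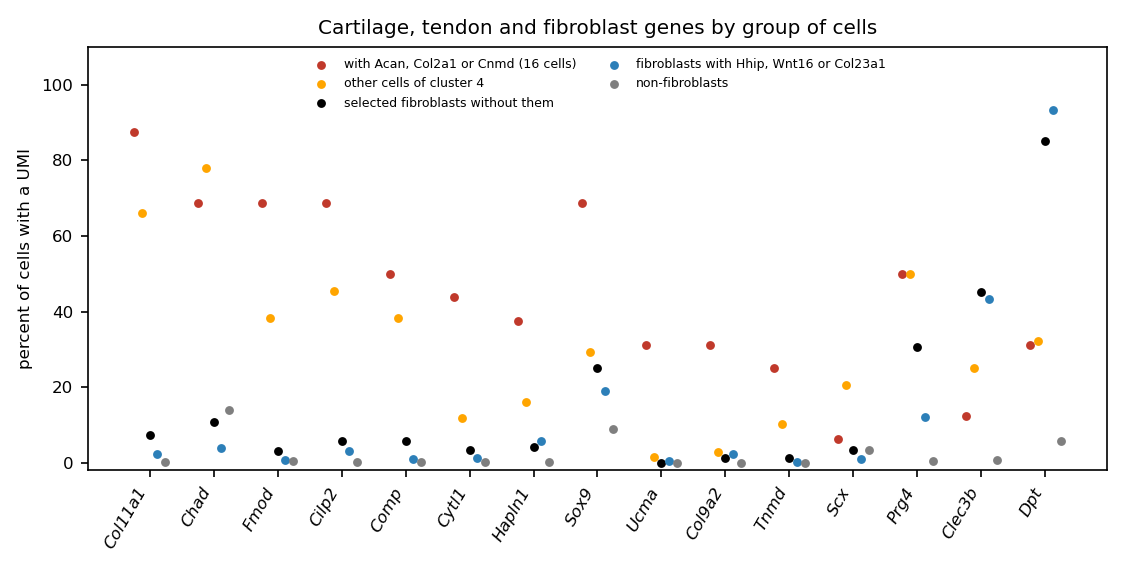
Percent of cells with a UMI of 15 genes in 5 groups of cells, the 16 negative fibroblasts with *Acan*, *Col2a1* or *Cnmd*, the other 68 cells of cluster 4, the 930 without, positive fibroblasts and non-fibroblasts. *Col11a1*, *Chad*, *Fmod* and *Comp* are frequent in the first 2 groups, and *Dpt* is frequent in the 930 and the positive fibroblasts.

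Summed per library, the cells with a cartilage gene gave 2 sums against 3 of those without. Of 9578 genes tested, 27 were higher (0.282%) and 11 lower (0.115%), and with the library as a block 122 were higher (1.27%) and 135 lower (1.41%). *Fmod* (chr1:133964992-133976015) stood at 834 and 807 CPM in libraries 1 and 3 against 10.1, 4.05 and 46.4 CPM (log2 fold 5.15 ± 0.71 SE, edgeR adjusted p = 0.032). *Chad* stood at 1220.3 and 2443 against 107, 145 and 218 CPM (log2 fold 3.47 ± 0.40 SE, edgeR adjusted p = 0.0243) and *Cytl1* at 2105 and 722 against 57.7, 8.10 and 21.7 CPM (log2 fold 5.38 ± 0.74 SE, edgeR adjusted p = 0.032). *Itga10*, an integrin chain that binds cartilage collagen, stood at 102 and 85.0 against 7.04, 5.40 and 8.14 CPM (log2 fold 3.60 ± 0.45 SE, edgeR adjusted p = 0.0269). These 4 genes were thus higher in both libraries than in any library of the cells without. Most of the 16 cells lay in cluster 4, so the contrast is also one of that cluster with the rest. In its other 68 cells, pooled over libraries, *Chad* stood at 1546 CPM against 1818 in the 16. *Fmod* stood there at 331 against 821 CPM and *Cytl1* at 292 against 1429 CPM. *Col11a2* stood at 173 and 21.2 CPM against 0.402, 0 and 0. *C7* had 0 UMIs and was at least 20.4-fold lower, against 301, 431 and 320.4 CPM, and *Clec3b* (tetranectin), a plasminogen-binding protein, stood at 10.2 and 31.9 against 535, 342 and 285 CPM (log2 fold -4.32 ± 0.62 SE, edgeR adjusted p = 0.0358). Of 18 chondrocyte genes 5 were higher and 0 lower (median log2 fold 2.80 against -0.07 over all genes), and with the block 11 were higher. The 16 cells were chosen for cartilage genes, so a rise of genes expressed along with these is in part built in. *Col11a2* and *Ucma* had 2 and 6 UMIs in all cells without, and the list count is a description. Of 14 chemokine, cytokine and complement genes 1 was lower, and with the block 11 were lower. The calls were fragile, with 3 genes called without library 2 and 0 when each cell was paired with cells of like depth, where 2394 genes could be tested. Leaving out library 1 or 3 leaves a single sum of cells with a cartilage gene, assumed to vary like the 2 sums of cells without, and gave 53 and 156 calls.

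*Lrig1*, the gene whose locus drove the label, had a UMI in 100 of 506 negative fibroblasts of library 1, and in 19.8%, 32.4% and 27.2% of the 3 libraries (95% Wilson interval 16.5% to 23.5% in library 1, counting error only). In positive fibroblasts the shares were 29.1%, 33.7% and 34.6%, and in non-fibroblasts 41.0%, 58.1% and 55.0%. With cells of at least 5000 UMIs thinned to that number, which leaves out 247 negative, 512 positive and 7942 non-fibroblast cells, negative fibroblasts gave 11.6%, 24.2% and 22.5%, and differed from positive ones by 1.50 percentage points ± 5.42 (SD of the difference, n = 3, exact two-sided sign-flip test p = 0.75). Against non-fibroblasts the thinned difference was -13.2 ± 3.28 points, below in 3 of 3 libraries (exact test p = 0.25, the smallest this test can give over 3 libraries). As a level, *Lrig1* stood at 28.2, 47.3 and 54.2 CPM in negative, 37.1, 49.2 and 53.4 in positive fibroblasts and 75.4, 89.6 and 92.8 in non-fibroblasts. It was lower than in non-fibroblasts (log2 fold -1.04 ± 0.22 SE, edgeR adjusted p = 0.00807), a call lost without library 2 (edgeR adjusted p = 0.0648), and not called against positive fibroblasts (log2 fold -0.13 ± 0.24 SE, edgeR adjusted p = 0.953). Across clusters, *Lrig1* was seen in 12.1% of cluster 2 and in 43.0% of cluster 9 and 41.4% of cluster 1.

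Negative fibroblasts with an *Lrig1* UMI were compared with those without. Of 10433 genes tested, 0 were higher (0%) and 0 lower (0%) in edgeR, with 187 at an unadjusted p under 0.05 and 1 called by DESeq2. On simulated data of this comparison 95% of genes changed by a log2 fold of 2 and 32% of those changed by 1 were recovered. In the same run 14 unchanged genes were called. The simulated counts had no pairing by library, and genes of the lowest levels were not changed. The shares recovered therefore need not hold for the real sums. With the library as a block, 1 gene was lower (0.00958%), *Cxcl13*, at 35.9, 22.8 and 1.96 CPM in the *Lrig1*-positive and 298, 495 and 25.2 CPM in the *Lrig1*-negative cells (log2 fold -3.39, edgeR adjusted p = 0.0041). With cells matched for depth and the same block, its log2 fold was near 0, at -0.004 with an edgeR adjusted p of 1.0. Most *Cxcl13* UMIs lay in a few cells, 46.8% of them in cluster 2 and 24.2% in cluster 9.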

How the data were processed

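The deposited files held raw UMI counts, which the authors made with Cell Ranger 8.0.1 on mm39 from 10x 3' libraries of sorted cells, for 33696 features in 3 libraries; 0 value columns were unmapped. Members, lists and tests were chosen with earlier results of these data known. Counts were summed per group and library and tested with edgeR 4.0.16 (R 4.3.3, TMM scaling, low-count filter, quasi-likelihood fit, Benjamini-Hochberg adjustment), without a block; DESeq2 1.42.0, a replicate block, other filters, thinned or depth-matched cells and left-out libraries were alternatives. Groups of one library come from one pool of animals and deviated together (r between 0.138 and 0.503), so library numbers pair them. The study calls the pools biological replicates; p-values measure the spread between 3 libraries. Named genes had a mean of at least 10 CPM in the higher group and the same direction in every library, and ranked by log2 fold among the called genes (15 higher and 5 lower, or 12 and 8; 5 per cluster in at least 25% of its cells). A few of these and of the listed genes are not reported here. A block fit named the gene of the *Lrig1* comparison. Negative fibroblasts were clustered with scanpy 1.11.5 on 2000 variable genes. Scrublet's own threshold marked 0, 7 and 573 barcodes and so did not work in libraries 1 and 2; 1 negative fibroblast was marked and none was removed. Simulated data, drawn without an effect of the library, tested the fits. Gene positions are from GENCODE on GRCm39.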

Additional observations from a re-analysis of the deposited data

How the results depend on the processing

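Against non-fibroblasts 7466 genes were called, and between 4557 and 5739 when a library was left out, fewest without library 1. Against positive fibroblasts 489 were called; the replicate block gave 1337, DESeq2 770, no filter 849, leaving out a library between 20 and 558, and the block without cells holding 2 markers of another class 1089. For cells with a cartilage gene 38 were called; the block gave 257, DESeq2 207, no filter 561, leaving out a library between 3 and 156, and depth matching 0, where fewer genes were tested. For *Lrig1*-positive cells 0 were called; the block gave 1, DESeq2 1, no filter 78 and the block with depth matching 2. The share of negative fibroblasts with an *Lrig1* UMI went from 26.4% to 19.4% thinned to 5000 UMIs and 7.29% thinned to 2000, and 13 clusters became 20 at a resolution of 2. The pairing by library and its block also moved counts over gene lists, and the text gives the blocked count beside a list it counts where that moved by over 1.5 times. Over the alternatives run on single named genes, 594 values kept their call and 100 lost it, none with a change of sign, and causes were not tested. Against non-fibroblasts 258 kept it and 1 lost it, and against positive fibroblasts 207 and 35. For cells with a cartilage gene the numbers were 128 and 54, and for *Lrig1*-positive cells 1 and 10. The marks of top doublet scores, cells with markers of another class, and the block on those cells were added after seeing the data. Library 2 held the fewest negative fibroblasts, 68 cells, and on simulated data 54% of genes changed by a log2 fold of 1 were recovered between the fibroblast groups but 3% in the cartilage comparison.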

Other observations

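Of 26 genes of the early response to tissue dissociation and heat, 4 were higher and 3 lower in negative fibroblasts than in non-fibroblasts (median log2 fold -0.19), beside 18.4% higher and 21.8% lower of all genes tested, and with the block 5 were higher and 5 lower. Against positive fibroblasts 0 of 25 were called, but with the block 6 were higher and 1 lower, beside 4.8% higher and 5.39% lower of all genes tested, and their part in the other calls was not tested. Of 12 Notch pathway genes, 2 were higher than in non-fibroblasts, *Notch2* and *Heyl*, and 5 were lower, *Notch1*, *Jag1*, *Jag2*, *Dll1* and *Hes1*. *Jag2*, a ligand, stood at 6.11, 0 and 3.94 CPM against 115, 120.1 and 140.3 in non-fibroblasts (log2 fold -4.77 ± 0.39 SE, edgeR adjusted p = 0.000118), and *Heyl*, a target gene, at 15.8, 18.9 and 36.8 CPM against 10.4, 9.79 and 8.20 (log2 fold 1.34 ± 0.31 SE, edgeR adjusted p = 0.0122), a call lost without library 2 or 3. Without cells that held at least 2 markers of another class, 1 of 11 Notch pathway genes tested was higher, *Notch2*, and 7 were lower, so that *Heyl* lost its call there too. Of 8 perineurial and endoneurial genes 5 were lower and 0 higher than in non-fibroblasts, with 1 higher under the block, and of 6 cycling genes 4 were lower and 0 higher, with 6 lower under the block. Of 7 adipocyte genes 3 were higher, with 2 under the block and 0 without library 2. Of 4 osteoblast genes 1 was higher and of 11 pericyte and smooth muscle genes 3, the latter with 4 higher and 2 lower under the block and 1 called without library 2, and both shares lie near the 18.4% of all genes. Of 11 tendon genes 6 were higher and 1 lower, of 17 adventitial genes 13 with 1 lower, of 23 chondrocyte genes 11 with 2 lower, of 8 synovial genes 4 with 3 lower and of 6 Schwann genes 3 with 1 lower. *Lrig2* and *Lrig3*, the other members of the Lrig family, were called in neither comparison without the block, with which *Lrig3* was higher than in positive fibroblasts, and stood at 51.5, 47.3 and 52.2 and 68.8, 101 and 66.7 CPM in negative fibroblasts.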
